A study of Mus musculus with 8 samples.

Results

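The transcript of the Rosa26 locus, Gt(ROSA)26Sor, and 8 genes that lie around it on mouse chromosome 6 were examined in palatal shelves, which grow from both sides of the upper jaw and fuse into the palate. The genes are Setd5, Thumpd3, Arpc4, Edem1, Trnt1, Cntn4, Gxylt2 and Lrrn1. All probe sets whose annotation holds exactly 1 of these 9 symbols were taken, which gave 18 of the 45037 probe sets on the array besides controls. The genes were chosen by their place near the locus and by their signals in the 2 genotypes on these same 8 arrays, so their genotype values, and counts of them called or without overlap, are given as a description and support nothing.

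Total RNA came from shelves dissected at embryonic day 14.5 and was read on 8 Affymetrix arrays, 1 per sample. Of these, 4 were labelled R26Pax3/Pax3 (replicates 1, 3, 4 and 7) and 4 were wild type littermates (replicates 2, 6, 8 and 11), all from a cross of C57BL/6 and SV129. The labels give no driver line and no cell type for the allele, nor whether a sample was 1 embryo or a pool, so the spread between samples may be in part technical. In RNA of whole shelves, fewer cells of a type and less RNA per cell cannot be told apart.

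Rosa26 was found in a gene trap screen in mouse embryonic stem cells. It gives rise to a noncoding RNA in nearly all tissues, and because insertions there are well tolerated it became a standard site for placing a gene under a broadly active promoter, usually in the first intron. The R26Pax3 allele carries Pax3, a transcription factor with a paired domain and a homeodomain that acts in early neural crest and in precursors of muscle.

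Signals are MAS5 intensities on a linear scale. Differences are on the scale of log2(signal + 16), mutant minus wild type, each with the standard error (SE) from limma, and the added constant shrinks the change of dim genes. Means are given ± SD with n = 4 arrays per genotype. A probe set was kept where its mean over the arrays exceeded the 40th percentile of all probe sets. This kept 15 of the 18 member probe sets, at least 1 for each of the 9 genes, and 27021 in all. The median signal of an array, between 43.5 and 44.8, serves as a guide below which a signal cannot be told from background here. No 2 arrays held the same values, and their pairwise correlation over the kept probe sets was 0.968 to 0.981. Markers of palate mesenchyme were present, with 8 of 8 measured and none below the median on all arrays. So were 6 of 6 markers of epithelium. Genotypes overlapped on each of 44 markers in 9 cell type lists, among which all 6 of skeletal muscle had a lower mean in the mutant (summed signal 409 to 2749 against 1169 to 2964) and so did all 3 measured of osteoblasts (5956 to 7022 against 6026 to 8487). The lowest muscle sum was that of mutant replicate 7, and the other mutant sums, 1248 to 2749, lay within the wild type range. Of the muscle markers, 4 were higher and 2 lower in the mutant among the first 4 arrays deposited, and 6 were lower among the last 4. Of the osteoblast markers, 1 was higher and 2 were lower among the first 4 (median log2 difference -0.01). All 3 were lower among the last 4 (median -0.54). Ckm lay below the median on all 8 arrays.

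Pax3, read as a check of the allele, gave 532, 559, 664 and 722 in mutant replicates 1, 3, 4 and 7 on probe set 1420389_at, and 176, 142, 167 and 162 in wild type replicates 2, 6, 8 and 11. All mutant arrays lay above all wild type arrays, as the labels imply, by 1.83 on the log2 scale (SE 0.113; adjusted p = 1.7e-05 in limma). Probe set 1430335_a_at gave 1.96 (SE 0.147), and 1441743_at gave -0.29 (SE 0.159) with overlapping genotypes.

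The genes form a stretch of chromosome 6 in the gene order of RefSeq (assembly GRCm38.p6). Only Thumpd3 and Setd5 adjoin Gt(ROSA)26Sor. Thumpd3 lies on one side, its annotated span overlaps that of Gt(ROSA)26Sor, and RefSeq lists the noncoding RNA also as Thumpd3as1. Setd5 lies directly on the other side. Counted in genes with a kept probe set, Edem1 was the 7th gene away on the side of Thumpd3, Lrrn1 the 11th, Trnt1 the 13th, Cntn4 the 14th and Gxylt2 the 20th, while Arpc4 was the 7th on the side of Setd5. "Neighbouring" thus holds in a strict sense for 2 of the 8 genes.

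RefSeq promoter sequences (GRCm38.p6) were matched for 7 of the 9 genes. The 3 shown belong to the genes with the largest genotype differences after Gt(ROSA)26Sor, and each gives the 250 bases before an annotated transcript start, 5′ to 3′ on the strand of the gene, which was + in all 3. Cntn4 has a pair of entries, of which the second is shown. Capitals mark ATTA, the core that homeodomains such as that of Pax3 bind, and GTCAC, part of the sites of paired domains, on both strands (also TAAT and GTGAC).

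Gxylt2: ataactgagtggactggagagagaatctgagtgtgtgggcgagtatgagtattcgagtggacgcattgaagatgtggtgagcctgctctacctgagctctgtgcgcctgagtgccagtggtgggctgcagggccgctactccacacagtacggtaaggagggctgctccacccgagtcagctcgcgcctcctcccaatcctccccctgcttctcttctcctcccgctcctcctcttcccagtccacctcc
Lrrn1: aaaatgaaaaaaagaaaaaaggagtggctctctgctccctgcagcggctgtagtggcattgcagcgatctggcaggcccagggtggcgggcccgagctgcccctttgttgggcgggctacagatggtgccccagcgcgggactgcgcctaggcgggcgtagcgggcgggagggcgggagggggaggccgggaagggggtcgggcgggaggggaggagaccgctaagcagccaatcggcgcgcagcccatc
Cntn4: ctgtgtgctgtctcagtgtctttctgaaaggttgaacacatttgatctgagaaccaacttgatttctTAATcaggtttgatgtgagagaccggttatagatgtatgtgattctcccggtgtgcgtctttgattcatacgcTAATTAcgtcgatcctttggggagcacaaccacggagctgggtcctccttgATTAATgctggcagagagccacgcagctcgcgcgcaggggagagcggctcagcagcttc

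ATTA or its reverse occurred in 54.9% of 32851 RefSeq promoters of this length, and GTCAC or its reverse in 39.8%. The windows of Gxylt2 and Lrrn1 held 0 of either, and that of Cntn4 held 5 of ATTA, counted with overlaps, and 0 of GTCAC. The windows also differed in base composition, with 59.6% G and C in Gxylt2, 68% in Lrrn1 and 50% in Cntn4, against a median of 52.4% over all promoters. These matches describe letters in the windows and not sites of binding.

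The noncoding transcript of the targeted locus, Gt(ROSA)26Sor, read 12.8, 18.9, 30.3 and 17.2 in mutant replicates 1, 3, 4 and 7 on its only probe set, 1452239_at. In wild type replicates 2, 6, 8 and 11 it read 318, 271, 390 and 371. The genotypes were far apart, and every mutant value lay below the median of its array while every wild type value lay well above. The log2 fold change was -3.31 (SE 0.163). Its size rests on the constant added before the logarithm, since it was -4.07 with 1 added and -2.25 with 64 added, and no fold is given because the mutant level cannot be told from background.

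In limma, 1 of the 15 kept member probe sets, that of Gt(ROSA)26Sor, had an adjusted p under 0.05. Of all 27021, 4 did (0.0148%), 2 of them lower in the mutant (0.0074%). Genotypes did not overlap on 7 member probe sets, 6 lower and 1 higher in the mutant, where 2.73% of all kept probe sets did not overlap (1.34% lower, 1.39% higher). Both counts follow from how the genes were picked, and nothing is read from them. The median log2 fold change was -0.01 over the 15 and 0.00 over all kept probe sets.

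**Figure D1:**
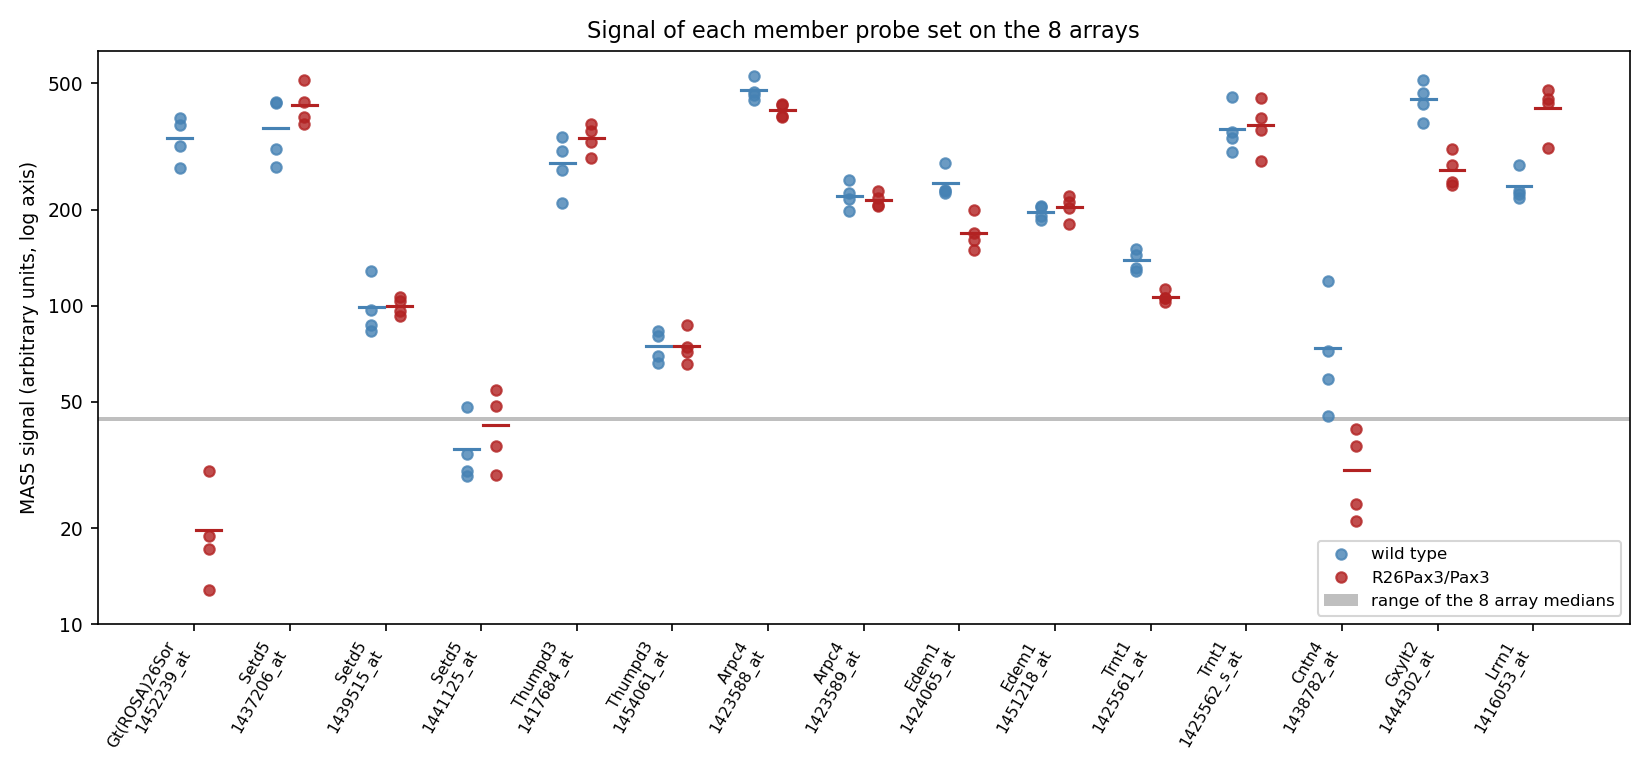
Signal (log axis) of the 15 kept member probe sets on each array, with wild type in blue, R26Pax3/Pax3 in red, group means as lines and the range of the array medians in grey. The mutant values of Gt(ROSA)26Sor, 12.8 to 30.3, and of Cntn4, 21.1 to 41.1, lie below the grey band.

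The genes that adjoin the locus had overlapping genotypes on every probe set, and the brightest probe set of each had a higher mean in the mutant. Setd5, a SET domain protein of chromatin in which loss of a copy causes a neurodevelopmental disorder in people, read 435, 511, 373 and 391 in mutant replicates 1, 3, 4 and 7 on its brightest probe set, 1437206_at. The wild type replicates 2, 6, 8 and 11 read 273, 432, 310 and 436. The genotypes overlapped, with a log2 fold change of 0.24 (SE 0.154). The other probe sets of Setd5 gave 0.03 (SE 0.134) for 1439515_at and 0.17 (SE 0.182) for 1441125_at, the latter with signals around the array median. With 1 array left out, 1439515_at lay between -0.04 and 0.14, on both sides of 0.

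Thumpd3, a THUMP domain protein that methylates guanosine in tRNA, read 327, 291, 373 and 353 in mutant replicates 1, 3, 4 and 7 on probe set 1417684_at. It read 267, 340, 307 and 211 in wild type replicates 2, 6, 8 and 11. Wild type replicate 6 lay above mutant replicates 1 and 3, and the log2 fold change was 0.26 (SE 0.137). The difference was 0.58 among the last 4 arrays deposited and -0.06 among the first 4, each set with 2 arrays of either genotype. The second probe set, 1454061_at, read 74.6 ± 9.19 in mutant and 75.0 ± 8.36 in wild type shelves, with a log2 fold change of -0.01 (SE 0.126).

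The transcript between Thumpd3 and Setd5 thus stood at -3.31, while the 5 probe sets of this pair lay between -0.01 and 0.26. Beyond this pair, the nearest measured genes were Srgap3, a protein of the Slit-Robo pathway (log2 fold change 0.05, SE 0.154), and Rad18, a ubiquitin ligase of DNA damage tolerance, on the side of Thumpd3. The 4 probe sets of Rad18 lay between -0.21 and 0.09. On the side of Setd5 they were Mtmr14, a phosphoinositide phosphatase (0.18, SE 0.111), and Brpf1, a subunit of histone acetyltransferase complexes (0.05, SE 0.0884). Genotypes overlapped on every probe set of these 4 genes.

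**Figure D2:**
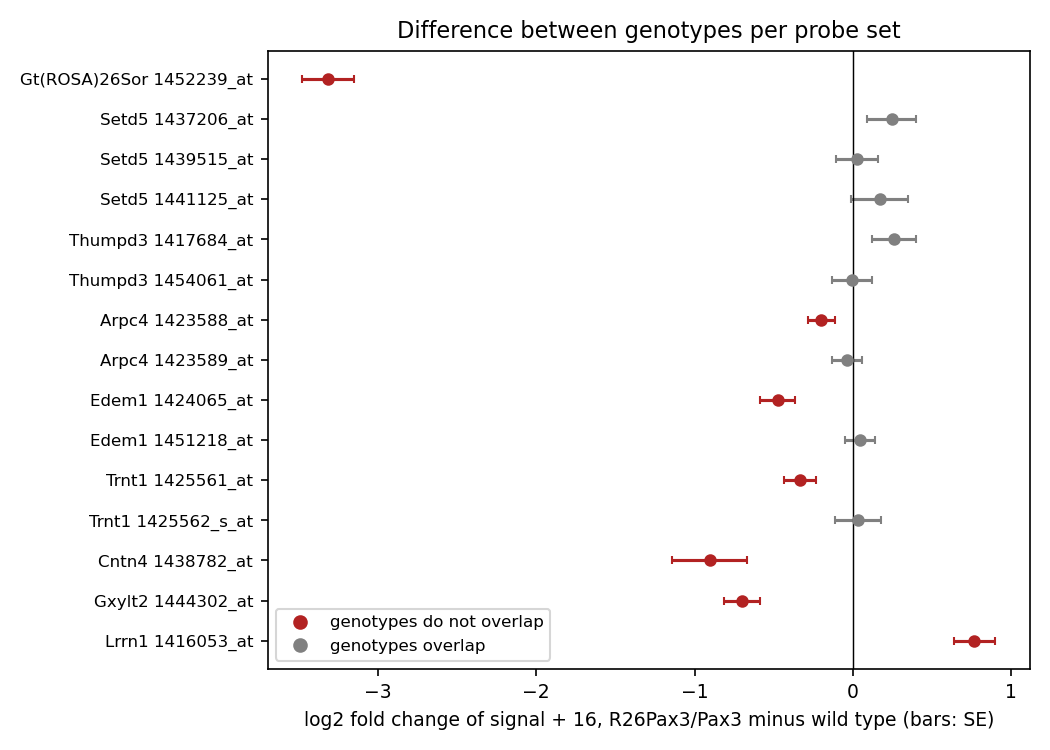
Log2 fold change of signal + 16 (x axis) for each kept member probe set, with limma's SE as bars and red where genotypes do not overlap. The points run from -3.31 for Gt(ROSA)26Sor to 0.77 for Lrrn1, and all 5 points of Setd5 and Thumpd3 lie between -0.01 and 0.26.

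Further out, Gxylt2 and Lrrn1 differed by similar amounts in opposite directions. Gxylt2 adds xylose to O-linked glucose on the EGF repeats of Notch receptors. It read 277, 239, 245 and 310 in mutant replicates 1, 3, 4 and 7 and 466, 430, 376 and 513 in wild type replicates 2, 6, 8 and 11 on its only probe set, 1444302_at. Every mutant array lay below every wild type array, with means 1.67-fold apart and a difference of -0.70 (SE 0.115). It was -0.61 among the first and -0.79 among the last 4 arrays deposited, and between -0.78 and -0.63 when any 1 array was left out.

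Other genes of Notch glycosylation and the receptors were split. Of 8 measured, 4 were lower and 4 higher, 0 were called by limma, and the median log2 fold change was -0.01, against 0.00 over all kept probe sets. The paralog Gxylt1 had -0.06 (SE 0.0877). The largest values were those of Lfng, a fringe glycosyltransferase (-0.45, SE 0.184), Poglut1, which places the glucose to which Gxylt2 adds (0.20, SE 0.112), and Notch1 (0.19, SE 0.095). The value of Lfng was 0.00 among the first and -0.90 among the last 4 arrays deposited. Genotypes overlapped on each of the 8 genes.

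Lrrn1, a leucine-rich repeat membrane protein first described in neurons, read 476, 312, 448 and 434 in mutant replicates 1, 3, 4 and 7 on probe set 1416053_at. It read 230, 217, 277 and 224 in wild type replicates 2, 6, 8 and 11. Every mutant array lay above every wild type array, and the closest were mutant replicate 3 and wild type replicate 8. The means were 1.76-fold apart, a difference of 0.77 (SE 0.131). It was 0.62 among the first and 0.91 among the last 4 arrays deposited. When any 1 array was left out it lay between 0.70 and 0.89, the highest without mutant replicate 3. Its other probe sets, 1432715_at and 1432716_at, read at most 14.2 on any array and were left out by the filter, so they cannot bear on the difference. Of 6 genes of its family, 2 had a kept probe set, Lrrn3 (0.03, SE 0.291) and Lrrn4cl, and both had overlapping genotypes. Lrrn4cl lay below the median on all 8 arrays, so no difference is given for it.

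Lrrn1 is known from neurons and from other tissues, so marker lists were read beside it. Each of 8 neuronal markers had a higher mean in the mutant, but their summed signal overlapped, from 699 to 1456 in mutant and from 351 to 1507 in wild type arrays. The wild type arrays were uneven, with sums of 351 in replicates 2 and 11, 845 in replicate 8 and 1507 in replicate 6. Among the first 4 arrays deposited, 6 of the 8 were higher in the mutant and 2 lower, with a median log2 difference of 0.09, and among the last 4 the median was 1.40 with 8 higher. Of 6 epithelial markers, 5 had a higher mean, with sums of 3188 to 4083 and 2590 to 3440. Their median log2 difference was 0.04 among the first 4 arrays deposited, with 4 higher and 2 lower. It was 0.40 among the last 4, with 5 higher and 1 lower. None of these 14 markers lay below the median on all arrays. However, Tubb3, Elavl3, Elavl4 and Snap25 lay below it in wild type replicates 2 and 11, both among the last 4 arrays deposited. Elavl3, Elavl4 and Snap25 did so in mutant replicate 7 as well. The neuronal median of 1.40 thus rests in part on signals that cannot be told from background. A higher mean was not particular to these lists. It was also found for 6 of 8 markers of palate mesenchyme, all 4 of endothelium and all 3 measured of erythroid cells. Leukocyte and Schwann markers were evenly split, and those of muscle and osteoblasts were all lower. The part of any of these markers in the difference of Lrrn1 was not tested.

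Cntn4, a contactin and thus an adhesion protein of axons held to the membrane by a lipid anchor, was dim. On probe set 1438782_at it read 36.2, 41.1, 23.9 and 21.1 in mutant replicates 1, 3, 4 and 7, all below the array medians. It read 71.9, 58.7, 120 and 45.0 in wild type replicates 2, 6, 8 and 11, all above them. The genotypes did not overlap, but mutant replicate 3 and wild type replicate 11 lay close together. The log2 fold change was -0.91 (SE 0.237) and lay between -1.07 and -0.69 when any 1 array was left out. It was -1.20 with 1 added to the signals and -0.52 with 64, and no fold is given because the mutant level cannot be told from background. The second probe set, 1460321_at, was left out by the filter. Its values, 10.1 to 17.9 in mutant and 18.0 to 46.5 in wild type shelves, were nearly all below the array medians.

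While Cntn4 read lower, each of the 8 neuronal markers named above had a higher mean in the mutant. Among the first 4 arrays deposited, however, their median difference was 0.09 and 2 of the 8 were lower. Contactins and their partners were split, with 4 of 8 measured lower, 4 higher and 0 called by limma. The largest values were those of Cntn6 (123 ± 24.7 against 174 ± 59.6, log2 fold change -0.41, SE 0.209), Cntn3 (59.7 ± 10.9 against 83.7 ± 12.9, -0.40, SE 0.146) and Aplp1, a relative of the amyloid precursor (0.24, SE 0.196), each with overlapping genotypes. Cntn6 and Cntn3 lie beside Cntn4 on the chromosome, as the 15th and the 17th gene from the locus. Chl1, an adhesion protein of the L1 family that lies between them, had a value of 0.30 (SE 0.208).

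Edem1, Trnt1 and Arpc4 were each read by a pair of probe sets. Genotypes did not overlap on the first probe set named below for each gene and overlapped on the second. Within arrays, the gap between the pair lay apart between genotypes only for Edem1. In the annotation of the array both probe sets of each gene derive from a single source sequence. Edem1 helps to pull misfolded glycoproteins out of the endoplasmic reticulum for degradation. On probe set 1424065_at it read 161, 150, 169 and 199 in mutant replicates 1, 3, 4 and 7 and 227, 281, 232 and 230 in wild type replicates 2, 6, 8 and 11, with no overlap and a log2 fold change of -0.48 (SE 0.112). It was -0.66 among the first and -0.29 among the last 4 arrays deposited.

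On the second probe set of Edem1, 1451218_at, the mutant read 204 ± 17.1 and the wild type 197 ± 9.99, with overlapping genotypes and a log2 fold change of 0.04 (SE 0.0955). Within each array the first probe set lay below the second by 0.09 to 0.46 on the log2 scale in the mutants, and above it by 0.14 to 0.55 in wild type. The gap between the pair thus lay apart between genotypes. It reuses the values of the first probe set, which had a part in picking the gene, and supports nothing. A lower level of Edem1 as a whole was not measured.

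Genes of the same degradation pathway had small values. Of 13 measured, 12 were lower and 1 was higher, 0 were called by limma, and the median log2 fold change was -0.06. Derl3 had the largest (-0.34, SE 0.274), but it lay below the array median on all 4 mutant and 3 of 4 wild type arrays. Its level there cannot be told from background. Next were Erlec1, a lectin of the pathway (399 ± 25.8 against 460 ± 28.6, -0.20, SE 0.0844, no overlap), and the paralog Edem2 (-0.16, SE 0.12). The other paralog, Edem3, had 0.01 (SE 0.078), and the chaperone Hspa5, which rises with stress in this compartment, had -0.02 (SE 0.0861).

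Trnt1, the enzyme that adds the CCA end to tRNAs, read 105, 106, 103 and 113 in mutant replicates 1, 3, 4 and 7 on probe set 1425561_at. Wild type replicates 2, 6, 8 and 11 read 128, 132, 144 and 151. The mutant arrays lay close together and below all wild type arrays, with a log2 fold change of -0.33 (SE 0.101), and the value was nearly the same among the first (-0.34) and the last (-0.33) arrays deposited. The second probe set, 1425562_s_at, read 370 ± 68.5 and 360 ± 63.9 with a log2 fold change of 0.03 (SE 0.146). The gap between the pair overlapped between genotypes, from -1.97 to -1.31 in mutant and from -1.54 to -1.13 in wild type arrays, as the second probe set varied widely.

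Of 10 measured genes of tRNA maturation and THUMP proteins, 3 were lower, 7 higher and 0 called by limma, with a median of 0.07. Thg1l, a guanylyltransferase of tRNA, had the largest value (0.71, SE 0.531) with a spread wider than the difference. It was -0.94 among the first and 2.36 among the last 4 arrays deposited. Wild type replicates 2 and 11, in the last 4, lay below the array medians for Thg1l (22.5 and 15.1). Elac2, the endonuclease that trims the 3′ end of tRNA before Trnt1 acts, was next (159 ± 18.1 against 136 ± 8.69, 0.21, SE 0.107, no overlap), followed by Tsen54, a subunit of the tRNA splicing endonuclease (0.15, SE 0.137).

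Arpc4, a core subunit of the Arp2/3 complex that starts branched actin filaments, differed least among the non-overlapping genes. On probe set 1423588_at it read 430, 395, 427 and 392 in mutant replicates 1, 3, 4 and 7 and 525, 460, 443 and 471 in wild type replicates 2, 6, 8 and 11, means 1.15-fold apart and a difference of -0.20 (SE 0.0839). The second probe set, 1423589_at, read 215 ± 11.0 and 222 ± 20.6, with overlap and a value of -0.04 (SE 0.0959). The gap between the pair was 0.86 to 0.93 in mutant and 0.88 to 1.16 in wild type arrays, which overlapped.

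Of the other subunits of the Arp2/3 complex, 5 of 8 were measured and all 5 had a slightly higher mean in the mutant, with a median log2 fold change of 0.08 and 0 called by limma. Actr3, one of its actin-related subunits, had 0.09 (SE 0.0624) without overlap, Arpc5 had 0.08 (SE 0.0797) and Arpc5l had 0.08 (SE 0.0888). For Setd5, of 11 measured SET domain proteins and partners of deacetylase complexes, 8 were lower and 3 higher, 0 were called and the median was -0.05. Setd2, the methyltransferase of histone H3 in transcribed genes, had -0.19 (SE 0.0974), Setd1a had -0.16 (SE 0.159) and Paf1 had -0.08 (SE 0.111).

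**Figure D3:**
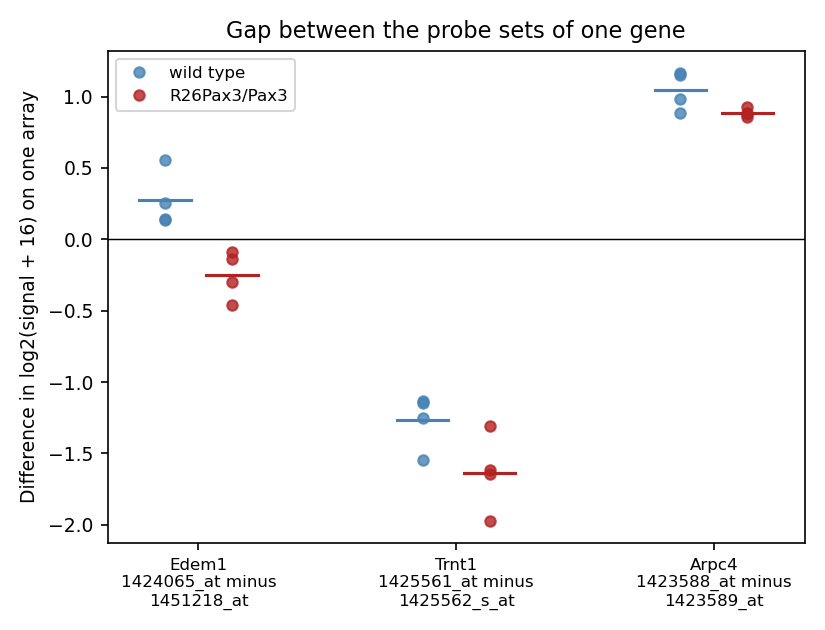
Difference in log2(signal + 16) between the 2 probe sets of Edem1, Trnt1 and Arpc4 on each array (y axis), with wild type in blue, R26Pax3/Pax3 in red and group means as lines. For Edem1 the mutant arrays, -0.46 to -0.09, lie apart from the wild type arrays, 0.14 to 0.55, and for Trnt1 and Arpc4 the genotypes overlap.

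The stretch around the locus was also read without regard to membership. The 25 measured genes on either side of Gt(ROSA)26Sor had 86 kept probe sets, of which 36 were lower and 50 higher in the mutant, with a median log2 fold change of 0.03 and 0 called by limma. Genotypes did not overlap on 7 of the 86, which is 8.14%, where 2.73% of all kept probe sets did not. These 7 are those of Gxylt2, Cntn4, Trnt1, Lrrn1, Edem1 and Arpc4, which were picked with this known, and 1 of Vhl, the substrate receptor of a ubiquitin ligase, named here after its values were seen. That probe set of Vhl read 258 ± 16.1 against 306 ± 32.2 (-0.23, SE 0.0968), and its other had -0.12 (SE 0.134). The 42 genes outside the list held 72 of the probe sets, and genotypes did not overlap on 1 of them (1.39%), that of Vhl. Picking the members shaped this share too. None of these 42 genes was without overlap on all of its probe sets. On chromosome 6 as a whole, 50 of 1153 probe sets (4.34%) were without overlap, and 43 of 1138 (3.78%) when the members were left out, beside 2.70% of 21570 on other chromosomes. No test was made of these shares.

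**Figure D4:**
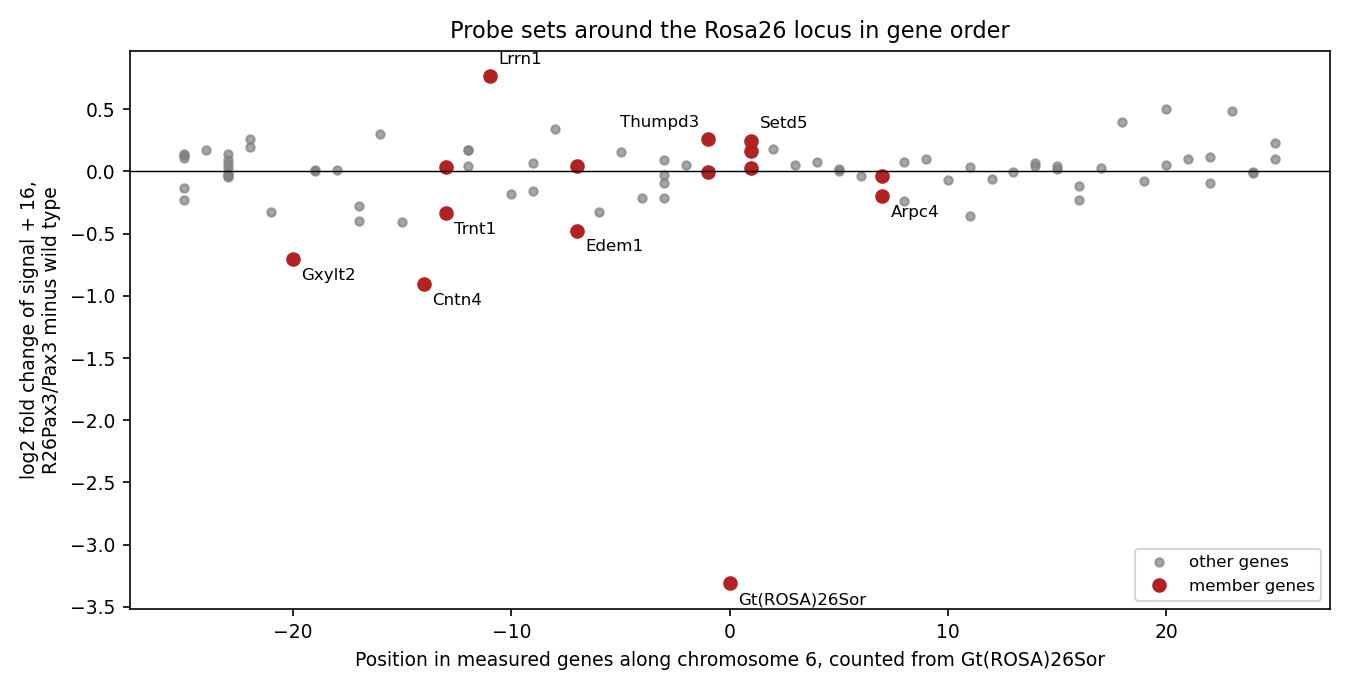
Log2 fold change of signal + 16 (y axis) of all kept probe sets of the 25 measured genes on either side of Gt(ROSA)26Sor, ordered along chromosome 6 (x axis, in measured genes, negative toward Thumpd3), with member genes in red. Gt(ROSA)26Sor stands at -3.31, while its 2 adjoining genes lie at or above -0.01.

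For 3 members, the probe sets of other genes nearest in pattern were found by the root mean square difference between their centred log2 values over the 8 arrays. For Gt(ROSA)26Sor the nearest was 1 probe set of Tia1, an RNA-binding protein whose gene also lies on chromosome 6, at a distance of 0.255, where the median over all other probe sets was 1.68. That probe set of Tia1 had a genotype difference of -3.00 (SE 0.136). Its 5 other kept probe sets had overlapping genotypes and values of 0.03 to 0.16. The next, Uqcr10 and Rusc2, were far behind at 1.14 and 1.2. For Lrrn1 they were Bnc1, a zinc finger protein of basal epithelial cells (0.102), Ier3, an early response gene (0.124), and Kcna1, a potassium channel whose gene lies on chromosome 6 (0.148), against a median of 0.459. For Gxylt2 the nearest, Sema3b (0.141), Rnf10 (0.142) and 1700120C14Rik (0.144), were dim, with all mutant values below the array medians, against a median of 0.416. The measure sets no probe set's level against another's and was not tested. These members were picked with their genotype difference known, so a probe set near in pattern must share that split. The medians also largely follow from the size of that difference, and the distances are a description that supports nothing.

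A comparison that played no part in picking the genes was that of the last against the first 4 arrays deposited, fitted with genotype as a covariate. The order of deposit is no label of a batch. None of the 15 kept member probe sets (0) passed at 0.05 after adjustment in limma (lowest adjusted p = 0.462), where 0.148% of all 27021 passed, and 2 had an unadjusted p under 0.05, where 8.83% of all did. These were the dimmest probe set of Setd5, 1441125_at, higher in the last arrays by 0.39 (SE 0.147, limma adjusted p = 0.462), and Cntn4 on 1438782_at, with a difference of -0.48 (SE 0.197, limma adjusted p = 0.506). The median size of this difference was 0.103 over the members and 0.104 over all kept probe sets. The spread within genotypes was also ordinary, with a median SD of 0.182 on the log2 scale over the members and 0.186 over all.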

How the data were processed

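Gene expression was measured on 8 Affymetrix arrays, 4 per genotype, grouped by the genotype in the sample titles. The authors deposited 1 intensity per probe set and array on a linear scale, computed with MAS5 according to the submitters' processing notes (no version given). Array means trimmed by 2% at either end were nearly equal in the deposited intensities (149 to 150), so overall brightness had been equalised, and a shift common to most genes could not be seen. Scanner files were not analysed here.

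Symbols came from the annotation of the platform, and gene order and promoters from RefSeq tables of GRCm38.p6, since the build of the array design is not given in the sources used here. Of 45037 probe sets besides 64 controls, 34945 had 1 symbol, 932 several and 9160 none. Signals were taken as log2(signal + 16), and probe sets whose mean did not exceed the 40th percentile were dropped. The genotype fit used limma 3.58.1 under R 4.3.3 (lmFit, eBayes with an intensity trend, Benjamini-Hochberg over 27021 probe sets). The order of deposit was tested with genotype as a covariate. The procedure was tested on simulated data.

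The members and lists were chosen with earlier results of these data known. Named are all members, Pax3, the 3 probe sets nearest in pattern to each of 3 members, the 3 nearest genes on either side of the locus, neighbours without overlap on all their probe sets, and up to 3 genes per list by size of difference. Gxylt1, Edem3, Hspa5, Chl1 and Vhl were named after their values were seen. Alternatives changed the pseudocount, filter, normalization, variance trend and a block for the order of deposit, or left out 1 array. The number of arrays limits the precision.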

Additional observations from a re-analysis of the deposited data

Results flagged for a closer look

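In 36 groups of 4 arrays (18 member probe sets in each genotype), 2 held an array far from the other 3 by Dixon's ratio of gap to range. Chance gives about 1 in 20. On probe set 1424065_at of Edem1, wild type replicate 6 read 281, above the next wild type array at 232. On probe set 1432716_at of Lrrn1, wild type replicate 8 read 6.1 where the next read 0.9, and all arrays there lay below their medians.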

How the results depend on the processing

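Between genotypes, 4 probe sets were called by limma under each of the pseudocounts 1 and 64, no filter, quantile normalization, no intensity trend and the order of deposit as a block, and the same 4 each time. Leaving out 1 array gave 4 to 9 calls. There were 9 without mutant replicate 3, and they included the 4. Among these 9 were 2 member probe sets, where the main fit called 1. Between the last and first 4 arrays deposited, the 40 calls became 25 without the intensity trend and 24 without the filter, and 19 to 36 with 1 array left out. They were 19 without mutant replicate 4, 23 without mutant replicate 1 and 25 without wild type replicate 11. The causes were not tested. No member was called in any fit of the order of deposit. The 7 member probe sets without overlap were 8 without the filter and 7 under quantile normalization, alternatives chosen after seeing the data. Leaving out an array cannot make separate genotypes overlap and is no check of this count. Of 210 log2 fold changes of members under alternatives, 207 moved by less than the SD between replicates, 3 moved by more, and 0 of a called probe set changed sign. Dropping the trend, dropping the filter and adding the block cannot move a log2 fold change here, so their share of the 207 shows nothing. The only member called in the main fit was Gt(ROSA)26Sor, at -3.31, so its sign could hardly change. Of uncalled probe sets, 4 with main values of at most 0.039 in size changed sign in 10 of the 210, each time with 1 array left out. The 3 were Gt(ROSA)26Sor with pseudocounts 1 and 64 and Trnt1 on 1425561_at with 64 (-0.25). No paired analysis was possible because the genotypes share no replicate number in the labels. Signals below the array medians limit Gt(ROSA)26Sor and Cntn4 in the mutant.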
